A study of Mus musculus with 8 samples.

Results

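Glycolysis turns glucose into pyruvate, which is either reduced to lactate or carried into mitochondria and oxidized, and the pentose phosphate pathway branches off at glucose 6-phosphate to make NADPH and ribose phosphates. Macrophages are known for raising glycolysis when they are activated or short of oxygen, and the transcription factor HIF-1 drives many of the genes concerned. Most steps can be catalyzed by several isozymes encoded by separate genes, so both the level of a step and the isozyme that carries it can be read from RNA.
The 34 genes described here encode glucose and lactate transporters, the enzymes of glycolysis, enzymes at the fate of pyruvate, and enzymes of the pentose phosphate pathway. They were chosen by symbol, and all 34 were found once each among the 17740 genes of the HFD table and the 16436 genes of the ND table. All 34 also passed the filter on low counts in both diets. Their Entrez IDs matched the RefSeq annotation of GRCm38.p6, the assembly also called mm10.
ARMs, the macrophages attached to adipocytes, and SMs, the macrophages of the stromal vascular fraction (titled NARM in the labels), were sorted from the epididymal fat (eWAT) of male wild-type C57BL/6J mice. Mice received a normal chow diet (ND) or a high-fat diet (HFD) from 6 weeks of age, the HFD lasting 8 weeks. There were 8 libraries in 4 groups: ARMs and SMs of HFD mice and ARMs and SMs of ND mice, with 2 libraries in each group. A library pooled 6 HFD mice or 10 ND mice, so the replicates are pools and a single mouse cannot be seen. ARMs were released by shaking the floating adipocytes with beads until they lysed, and SMs were pelleted without that step, so cell type and handling cannot be told apart.
The libraries held 14508824 to 19040133 estimated read counts, with TMM factors (edgeR's scaling for composition) of 0.989 to 1.02. Replicates differed by more than counting noise, the mean chi-square per gene being 4.22 to 10.1 where counting noise alone gives 1. None of the 10 macrophage markers was called different between ARMs and SMs in either diet, and their summed level was 11000 to 11670 FPKM in HFD libraries and 13160 to 13600 FPKM in ND libraries. In a bulk sample, fewer cells of a type and less RNA per cell cannot be told apart.

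Nearly the whole of glycolysis and the pentose phosphate pathway differed little between ARMs and SMs, as did most genes tested. The only gene of the set called was the minor enolase gene Eno2 in HFD mice. A gene was called when ARMs and SMs differed by a fold change over 1.5 with an adjusted p under 0.05, in edgeR's quasi-likelihood test, p-values being adjusted after Benjamini and Hochberg over all genes tested. In HFD mice 1 of the 34 genes was called higher in ARMs, beside 4.46% of all 13337 genes tested, and 0 were called lower, beside 0.292%. In ND mice 0 of the 34 were called higher, beside 3.55% of all 12441 genes tested, and 0 lower, beside 0.129%. The counts called by phase below stand beside these same shares, at which 0 of so few genes says nothing about them. At an unadjusted p under 0.05, 8 of the 34 genes passed in HFD mice and 6 in ND mice, against 3089 and 1858 of all genes tested.
The differences were small in size as well as few, and so were those of all genes tested. The median log2 fold change of the 34 genes, ARM minus SM, was 0.02 in HFD mice and 0.06 in ND mice, and that of all genes tested was -0.01 and -0.02. The median size of the change, whatever its sign, was 0.10 and 0.09 for the 34 genes and 0.13 in both diets for all genes. The whole 95% interval of the fold change lay within 1.5-fold either way for 29 genes in HFD mice and 28 in ND mice. No share over all genes is given, so these counts do not set the 34 genes apart. For 23 genes (HFD) and 28 genes (ND), the larger replicate difference, of ARMs or of SMs, exceeded the difference between ARMs and SMs. Single libraries vary more than groups of libraries, so many genes without any difference would also be counted. A share over all genes is again not given, so these 2 counts say nothing about how small the differences were.
Without regard to the size of the fold change, 3 of the 34 genes reached an adjusted p under 0.05 in HFD mice (Eno2, Pgam1 and Pdk4), beside 9.55% of all genes. In ND mice 1 gene did (Pfkfb3), beside 4.73% of all genes. Both ARM libraries lay on one side of both SM libraries in FPKM for 17 of the 34 genes in HFD mice, beside 50.5% of all genes tested, and for 9 in ND mice, beside 43.3%. These shares are near or below those of all genes.

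**Figure D1:**
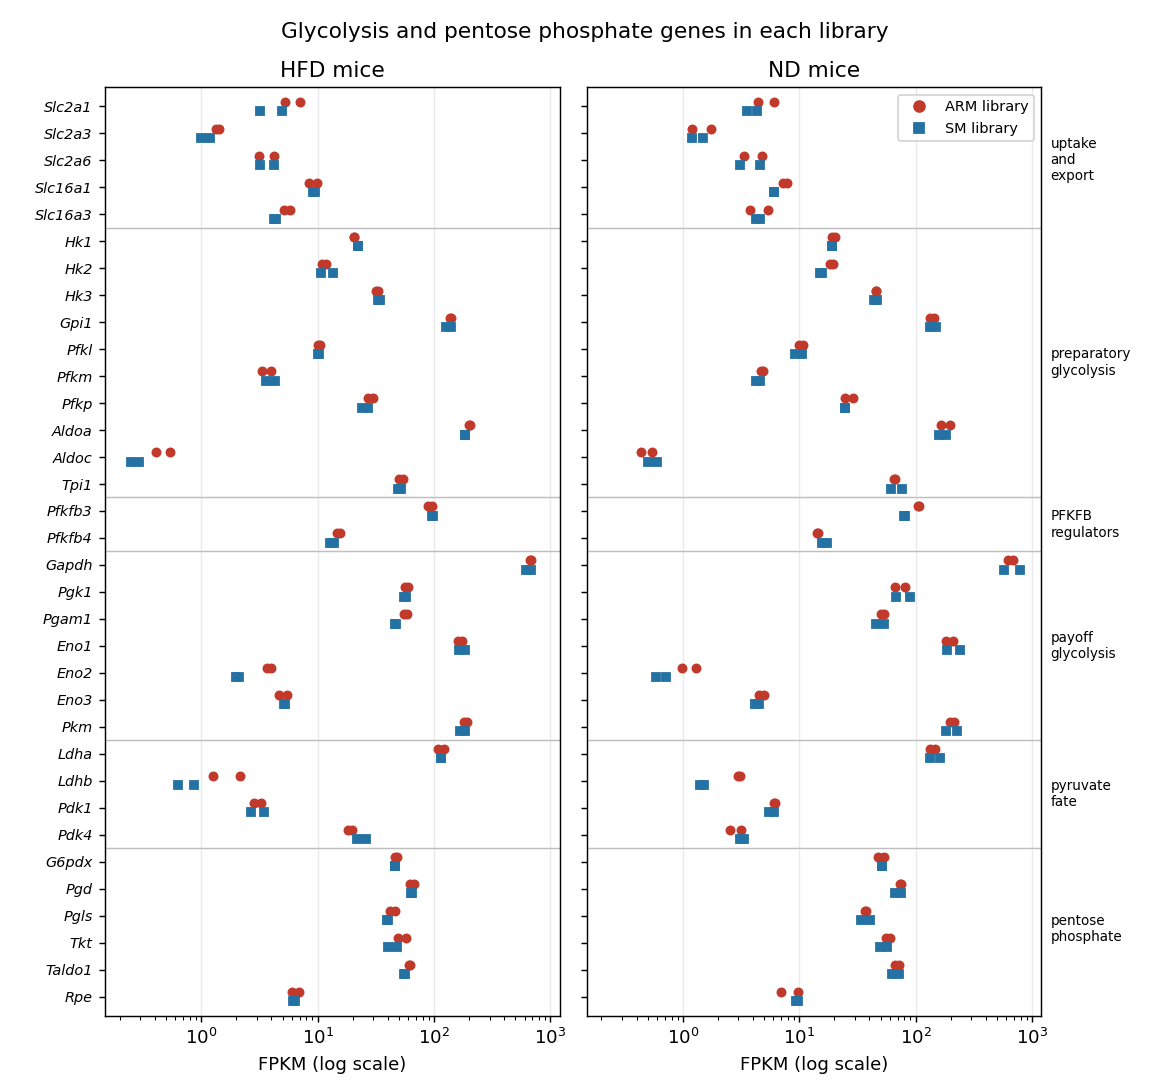
Level of each of the 34 genes in every library, in FPKM (fragments per kilobase, scaled by the authors to library size) on a log scale, with ARM libraries as circles, SM libraries as squares and lines parting the roles. The symbols of ARMs and SMs overlie each other for most genes, and Eno2 and Ldhb, both under 5 FPKM, are set apart in both diets.

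**Figure D2:**
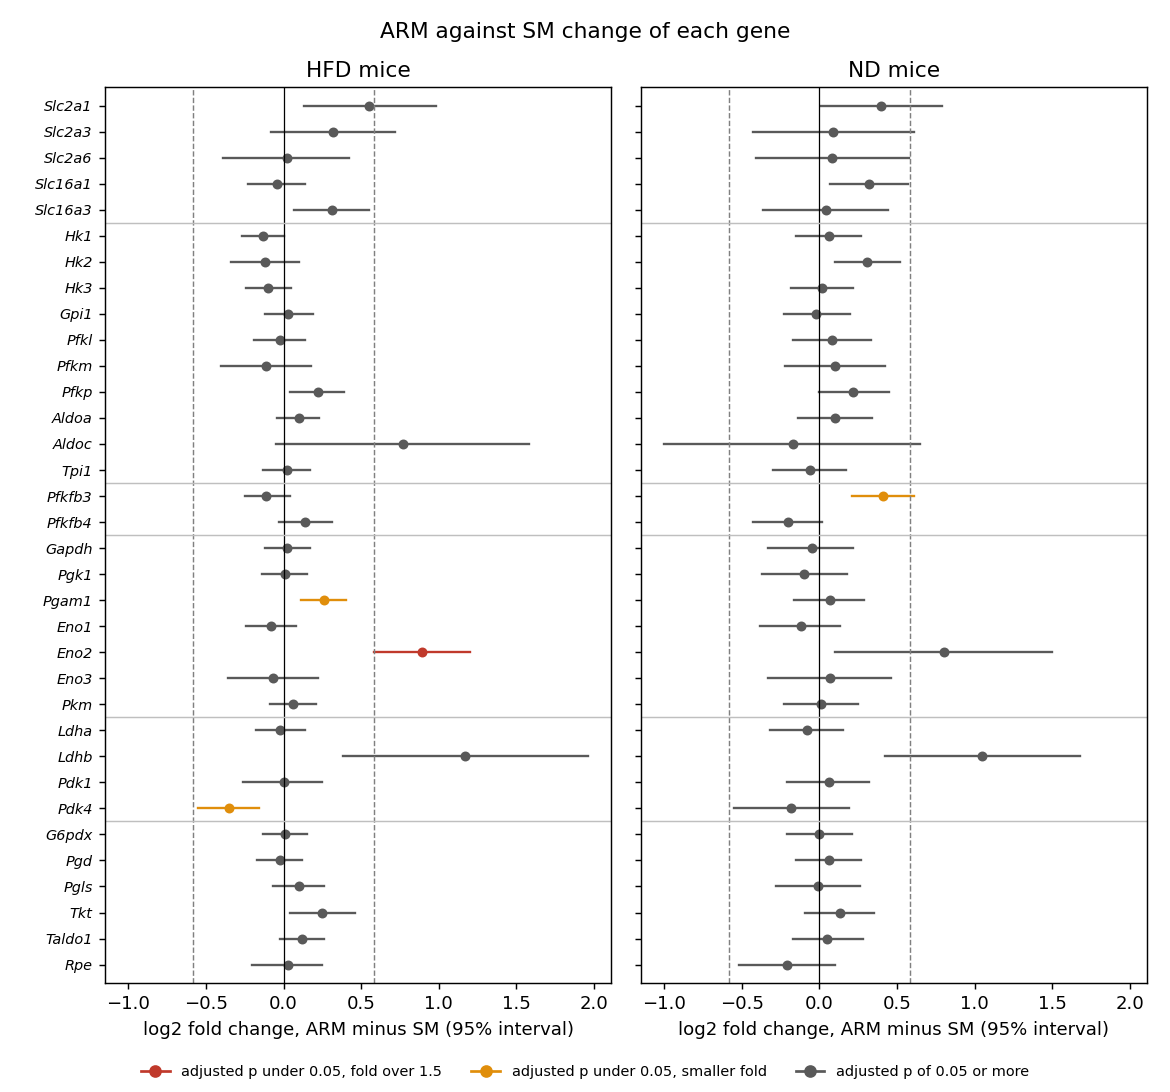
Log2 fold change of each gene, ARM minus SM, with its 95% interval from edgeR's quasi-likelihood fit on 2 against 2 libraries, where dashed lines mark a 1.5-fold change. Eno2 in HFD mice is the gene past both thresholds. The intervals of 29 genes in HFD mice and 28 in ND mice lie between the dashed lines, with no share over all genes given.

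Levels spanned a wide range, and the 6 most abundant genes were the same in both diets. Gapdh, the glyceraldehyde 3-phosphate dehydrogenase, led with up to 685 FPKM in HFD mice and 784 FPKM in ND mice. Aldoa (aldolase), Pkm (pyruvate kinase), Eno1 (enolase), Gpi1 (glucose 6-phosphate isomerase) and Ldha (lactate dehydrogenase A) were the other five with a mean over 100 FPKM. Under 10 FPKM were 12 genes in HFD mice and 13 in ND mice, among them all 5 transporter genes. Summed over the 34 genes, the level was 2147 and 2252 FPKM in HFD ARMs against 2043 and 2182 FPKM in HFD SMs. In ND mice the sum was 2321 and 2266 FPKM in ARMs against 2519 and 2061 FPKM in SMs, so that the ND SM libraries enclosed both ARM libraries.

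Among the transporters, none was called in either diet. Slc2a1, the gene of the glucose transporter GLUT1, was at 5.25 and 7.05 FPKM in HFD ARMs against 3.2 and 4.96 FPKM in HFD SMs. In ND mice Slc2a1 was at 4.43 and 6.01 FPKM in ARMs against 3.58 and 4.32 FPKM in SMs. The ARM libraries thus lay above the SM libraries in both diets, by about the distance between replicates. The log2 fold change was 0.55 (SE 0.19, adjusted p = 0.106) in HFD mice and 0.40 (SE 0.18, adjusted p = 0.322) in ND mice. Without replicate 2 of the HFD SMs Slc2a1 was called, at 0.90 (adjusted p = 0.00273), while it was at 0.27 without replicate 1 of those SMs and at 0.34 without replicate 2 of the HFD ARMs. Over its 12 alternatives the log2 fold change ran from 0.27 to 0.90 in HFD mice, with adjusted p from 0.00273 to 0.585, and from 0.16 to 0.61 in ND mice.
Slc2a3, which encodes the glucose transporter GLUT3, changed by 0.32 in HFD and 0.09 in ND mice on the log2 scale, at 0.99 to 1.74 FPKM over all libraries. Slc2a6, which encodes a further member of the glucose transporter family, differed by 0.02 and 0.08. The lactate exporter gene Slc16a3 (MCT4) was at 5.17 and 5.74 FPKM in HFD ARMs against 4.40 and 4.25 FPKM in HFD SMs, or 0.31 on the log2 scale (adjusted p = 0.108), and differed by 0.04 in ND mice. Slc16a1 (MCT1), which carries lactate and pyruvate across the membrane, gave the reverse order of the diets, with -0.04 in HFD mice and 0.32 (adjusted p = 0.168) in ND mice. The transporter genes of the set are not the most expressed of their families. Slc2a8 and Slc16a7, which are outside the set and are named after their values were seen, were at 7.96 to 10.18 FPKM and 15.18 to 17.3 FPKM over the 8 libraries.

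In the preparatory phase, in which glucose is phosphorylated and split, 0 of 10 genes were called in either diet. Hexokinase, the entry step, was carried by 3 genes. Hk3 took 49.0% to 57.6% of the summed hexokinase FPKM in all 8 libraries, Hk1 23.1% to 33.5% and Hk2, the inducible isozyme, 16.3% to 22.9%. Hk2 was at 10.93 and 11.90 FPKM in HFD ARMs against 10.72 and 13.48 FPKM in HFD SMs, where the SM libraries enclosed the ARM libraries. In ND mice Hk2 was at 18.22 and 19.54 FPKM in ARMs against 14.97 and 15.69 FPKM in SMs, with no overlap and a change of 0.31 (SE 0.10, adjusted p = 0.0955). Hk1 moved by -0.13 and 0.06 in the 2 diets, and Hk3 by -0.10 and 0.02.
Phosphofructokinase, the committed step, was mostly the platelet isozyme gene Pfkp, with 61.7% to 68.0% of the summed FPKM of the 3 genes, followed by Pfkl with 22.6% to 26.7% and Pfkm with 8.13% to 12%. Pfkp changed by 0.22 in both diets (adjusted p = 0.122 in HFD mice and 0.344 in ND mice). Pfkl differed by -0.02 and 0.08 and Pfkm by -0.11 and 0.10. Of the aldolases, Aldoa took at least 99.6% of the FPKM in every library, with log2 fold changes of 0.10 in both diets. Aldoc was at 0.25 to 0.60 FPKM, with 13 to 27 counts a library, so its HFD value of 0.77 had an SE of 0.37 and a 95% interval from -0.05 to 1.58. Gpi1 and Tpi1, the isomerases of this phase, differed by 0.03 and 0.02 in HFD mice and by -0.02 and -0.06 in ND mice.

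The PFKFB enzymes make and break fructose 2,6-bisphosphate, the chief activator of phosphofructokinase, and Pfkfb3 was among the well expressed genes of the set. In ND mice Pfkfb3 was at 103.92 and 106.38 FPKM in ARMs against 80.40 and 79.19 FPKM in SMs. Both ARM libraries were higher and replicates lay close together, which gave 0.41 on the log2 scale (SE 0.09, adjusted p = 0.0204), a 1.33-fold difference that did not reach the fold of 1.5. In HFD mice Pfkfb3 was at 95.57 and 88.20 FPKM in ARMs against 96.45 and 97.06 FPKM in SMs, a log2 fold change of -0.11 (SE 0.07, adjusted p = 0.389). Over the 12 alternatives the ND value stayed between 0.38 and 0.43, and its adjusted p was under 0.05 in 7 of them and ran from 2.74e-05 to 0.166. It was 0.166 with replicate 2 of the ND ARMs left out, and 0.148 or 0.111 with replicate 1 or 2 of the ND SMs left out.
Pfkfb4, the second isozyme, was at 14.64 and 15.45 FPKM in HFD ARMs against 13.96 and 12.67 FPKM in HFD SMs. In ND mice the order was turned, with 14.26 and 14.39 FPKM in ARMs against 17.21 and 15.64 FPKM in SMs. Neither difference reached an adjusted p under 0.05, with log2 fold changes of 0.14 (adjusted p = 0.326) and -0.20 (adjusted p = 0.416). Pfkfb3 took 85.1% to 88.5% of the FPKM of the pair in HFD libraries, 87.9% and 88.1% in ND ARMs and 82.4% and 83.5% in ND SMs.

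In the payoff phase, in which ATP and NADH are made, 1 of 7 genes was called in HFD mice and 0 in ND mice. Eno2, which encodes the gamma enolase best known from neurons, was at 4 and 3.71 FPKM in HFD ARMs against 2.12 and 2 FPKM in HFD SMs. The groups did not overlap, and each ARM library lay well above each SM library. The log2 fold change was 0.89 (SE 0.14, 95% interval 0.58 to 1.20, adjusted p = 0.00315), a 1.85-fold difference. In ND mice Eno2 was at 0.99 and 1.29 FPKM in ARMs against 0.59 and 0.72 FPKM in SMs, again without overlap, but on 21 to 45 counts a library and with a log2 fold change of 0.80 (SE 0.33, adjusted p = 0.241). The 2 diets did not differ in this change beyond error, the difference being 0.07 (SE 0.31, adjusted p = 0.990). In HFD mice the adjusted p was over the threshold in 1 of 12 alternatives, 0.0568 without replicate 1 of the ARMs, with a range from 0.00142 to 0.0568 and log2 fold changes from 0.67 to 0.95.
Eno2 is a small part of the enolase transcripts. It took 2.35% and 2.02% of the summed enolase FPKM in HFD ARMs against 1.24% and 1.04% in HFD SMs, and 0.457% and 0.689% in ND ARMs against 0.240% and 0.375% in ND SMs. Eno1, the ubiquitous enolase, took 94.4% to 97.9% in every library and was at 160.45 and 175.47 FPKM in HFD ARMs against 163.86 and 184.19 FPKM in HFD SMs. Its log2 fold change was -0.08 in HFD mice and -0.12 in ND mice, and that of Eno3, the muscle enolase, was -0.07 and 0.07.
Pgam1, the phosphoglycerate mutase, was at 55.41 and 59.05 FPKM in HFD ARMs against 47.30 and 46.65 FPKM in HFD SMs. Both ARM libraries were higher, by a log2 fold change of 0.26 (SE 0.06, adjusted p = 0.0326), or 1.20-fold. In ND mice, where its libraries overlapped, the value was 0.07 (adjusted p = 0.853). The HFD value was between 0.23 and 0.29 in its 12 alternatives, with an adjusted p under 0.05 in 6 of them and a range from 0.0198 to 0.288. The adjusted p was 0.149 without replicate 1 of the HFD ARMs, 0.288 without replicate 2 of the HFD ARMs and 0.0614 without replicate 2 of the HFD SMs.
The remaining genes of the phase showed small differences. Gapdh, often taken as a reference gene, was at 660.84 and 685.34 FPKM in HFD ARMs against 613.97 and 679.62 FPKM in HFD SMs, a log2 fold change of 0.02 (95% interval -0.12 to 0.17). In ND mice Gapdh was at 687.48 and 625.94 FPKM in ARMs against 784.49 and 573.64 FPKM in SMs, so that the SM replicates lay further apart than the groups. Pgk1, the phosphoglycerate kinase, differed by 0.01 in HFD mice and -0.10 in ND mice, and Pkm by 0.06 and 0.01. In the ND SM pair, replicate 1 exceeded replicate 2 for 22 of the 34 genes, by 0.46 on the log2 scale for Gapdh, 0.41 for Pgk1, 0.37 for Eno1, 0.33 for Pkm and 0.31 for Tpi1. Genes such as Gapdh and Pgk1 have processed pseudogenes with nearly the same sequence, and how reads that fit several places were counted is not given in the sources used here. The estimated counts were not whole in at least 1 library for 16 of the 34 genes in HFD mice and 4 in ND mice, Gapdh among them in both diets, and were whole for Pgk1.

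At the fate of pyruvate, 0 of 4 genes were called in either diet. Ldha, which encodes the muscle-type subunit that favors lactate production, was at 107.29 and 122.65 FPKM in HFD ARMs against 113.77 and 114.39 FPKM in HFD SMs, with the SM libraries inside the ARM range. Its log2 fold change was -0.02 in HFD mice and -0.08 in ND mice. Ldhb, the heart-type subunit, had the largest fold change of the 34 genes in both diets, at a low level. It was at 1.26 and 2.16 FPKM in HFD ARMs against 0.86 and 0.63 FPKM in HFD SMs, on 15 to 50 counts a library. In ND mice Ldhb was at 2.98 and 3.11 FPKM in ARMs against 1.40 and 1.53 FPKM in SMs, on 24 to 56 counts. The groups did not overlap in either diet, but the adjusted p missed the threshold, with log2 fold changes of 1.17 (SE 0.36, adjusted p = 0.0693) and 1.05 (SE 0.30, adjusted p = 0.059).
The call of Ldhb turned on the settings. Its adjusted p was under 0.05 in 1 of 12 alternatives in HFD mice (range 0.0391 to 0.487) and in 5 of 12 in ND mice (range 0.00507 to 0.457). Ldhb made up 1.16% and 1.73% of the summed Ldha and Ldhb FPKM in HFD ARMs against 0.75% and 0.548% in HFD SMs, and 1.98% and 2.29% in ND ARMs against 0.852% and 1.13% in ND SMs.
Pyruvate dehydrogenase kinases switch off the entry of pyruvate into mitochondrial oxidation. Pdk4, the isozyme that responds to fasting and fatty acids, was at 19.85 and 18.21 FPKM in HFD ARMs against 25.79 and 21.93 FPKM in HFD SMs. Both ARM libraries were lower, and Pdk4 fell by 0.35 on the log2 scale (SE 0.09, adjusted p = 0.0318), short of a 1.5-fold difference. In ND mice Pdk4 was at 2.53 and 3.19 FPKM in ARMs against 3.12 and 3.36 FPKM in SMs, with overlap, and its log2 fold change was -0.18 (adjusted p = 0.732). Over its 12 alternatives in HFD mice the adjusted p ran from 0.00176 to 0.351 and was under 0.05 in 5. It was 0.126 without replicate 1 of the HFD ARMs, 0.351 without replicate 2 of the HFD ARMs and 0.104 without replicate 1 of the HFD SMs. Pdk1, a HIF-1 target, differed by 0.00 in HFD mice (95% interval -0.26 to 0.25) and by 0.06 in ND mice.

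In the pentose phosphate pathway 0 of 6 genes were called in either diet. G6pdx, which encodes the rate-limiting glucose 6-phosphate dehydrogenase, was at 48.19 and 46.37 FPKM in HFD ARMs against 45.75 and 46.56 FPKM in HFD SMs. In ND mice G6pdx was at 47.82 and 53.95 FPKM in ARMs against 50.91 and 51.14 FPKM in SMs, where the ARM libraries enclosed the SM libraries. Its log2 fold change was 0.01 (95% interval -0.13 to 0.15) and 0.00 (95% interval -0.21 to 0.21), so a difference of 1.5-fold lay outside both intervals. Pgd, the second dehydrogenase of the oxidative arm, differed by -0.02 and 0.06, and Pgls, the lactonase between them, by 0.10 and -0.01.
In the non-oxidative arm, Tkt (transketolase) was at 49.42 and 57.64 FPKM in HFD ARMs against 40.08 and 48.14 FPKM in HFD SMs, a log2 fold change of 0.25 (SE 0.10, adjusted p = 0.142). The ARM libraries were above the SM libraries, the replicates of each group lying about as far apart as the groups. Taldo1 (transaldolase) differed by 0.12 in HFD mice, without overlap, and by 0.05 in ND mice. Rpe, the ribulose phosphate epimerase, differed by 0.03 and -0.21. The 6 genes summed to 269.1 and 287.2 FPKM in HFD ARMs against 250.5 and 262.2 FPKM in HFD SMs, and to 290.1 and 304.6 FPKM in ND ARMs against 303.9 and 272.2 FPKM in ND SMs.

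Whether the change between ARMs and SMs differed between diets was tested as the interaction of cell type and diet in one edgeR fit of all 8 libraries. In that fit, which had no block for the replicate number, 0 of the 34 genes reached an adjusted p under 0.05, beside 0.165% of the 13358 genes tested, and 4 had an unadjusted p under 0.05 against 1017 of all genes. Pfkfb3 came nearest, with a difference, HFD minus ND, of -0.53 (SE 0.11, adjusted p = 0.0865). Hk2 (-0.45, adjusted p = 0.343), Slc16a1 (-0.38, adjusted p = 0.434) and Pfkfb4 (0.33, adjusted p = 0.515) were the other three. For 3 of the 34 genes (Pfkfb3, Pfkfb4 and Hk1) both ARM libraries lay on one side of both SM libraries in HFD mice and on the other side in ND mice, beside 4.31% of the 12343 genes tested in both diets. Over the 34 genes, 12 had a log2 fold change above 0 in both diets, 3 below 0 in both and 17 on opposite sides, the others being at 0.00 in 1 diet. Across genes, which are not independent replicates, Pearson's r between the changes of the 2 diets was 0.63 over 34 genes and 0.06 over 32 genes when Eno2 and Ldhb, left out after their values were seen, were not counted.

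Between diets the levels of a few genes differed by far more than between ARMs and SMs. No test was made, because each diet has its own table, and diet and table cannot be told apart. Whether the tables were made in the same way is not given in the sources used here. For the 34 genes the length implied by counts and FPKM was 1.01 to 1.18 times as long in the HFD table as in the ND table. Pdk4 was at 18.21 to 25.79 FPKM in the 4 HFD libraries and at 2.53 to 3.36 FPKM in the 4 ND libraries. This was a ratio of mean FPKM, HFD over ND, of 6.65 in ARMs and 7.36 in SMs, the largest of the set. Eno2 followed, at 2 to 4 FPKM against 0.59 to 1.29 FPKM, with ratios of 3.38 in ARMs and 3.15 in SMs.
In the other direction Pdk1 was at 2.68 to 3.47 FPKM in HFD libraries and at 5.55 to 6.17 FPKM in ND libraries, with ratios of 0.499 in ARMs and 0.529 in SMs. Of the summed FPKM of this pair alone, Pdk4 took 84.8% to 90.6% in HFD libraries and 29.6% to 37.7% in ND libraries. The kinase genes outside the set, Pdk2 and Pdk3, are named after their values were seen. Pdk2 was at 6.21 to 8.09 FPKM in HFD libraries and 6.46 to 8.81 FPKM in ND libraries, and Pdk3 at 6.02 to 7.09 FPKM and 7.23 to 10.5 FPKM. Pdk4 thus had the most FPKM of these 4 genes in every HFD library and the least in every ND library.
All 4 HFD libraries were above all 4 ND libraries for 4 of the 34 genes (Pdk4, Eno2, Slc16a1 and Hk1), beside 13.3% of the 12343 genes compared. All 4 were below for 7 genes (Hk2, Hk3, Tpi1, Pgk1, Ldha, Pdk1 and Rpe), beside 32.8%. With a ratio past 1.5-fold in both ARMs and SMs there were 2 genes above (Pdk4 and Eno2), beside 4.98% of all genes, and 1 below (Pdk1), beside 5.65%. These shares are near or below those of all genes. Hk2 was at 10.72 to 13.48 FPKM in HFD libraries and 14.97 to 19.54 FPKM in ND libraries, with log2 ratios of -0.73 in ARMs and -0.34 in SMs. The median log2 ratio of the 34 genes was -0.10 in ARMs and -0.14 in SMs, against -0.12 and -0.15 for all genes. On TMM-scaled counts these medians were -0.03 and -0.07 against -0.05 and -0.05, so ratios of about 0.1 turn on the scale. The log2 ratio of Pgam1 in SMs was -0.09 in FPKM and 0.04 in TMM-scaled counts.

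**Figure D3:**
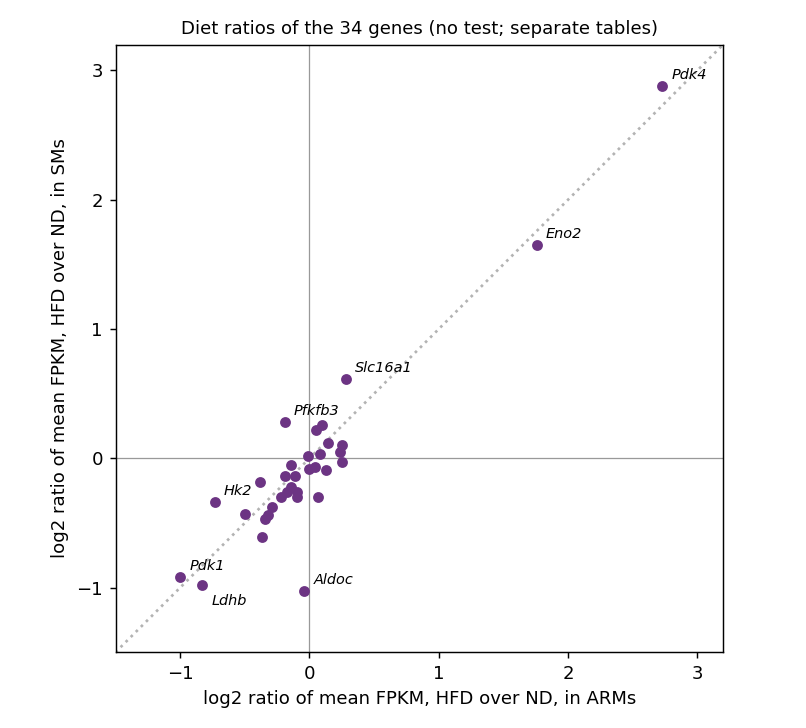
Log2 ratio of mean FPKM, HFD over ND, in SMs (vertical axis) against ARMs (horizontal axis) for the 34 genes, with the dotted line at equality. Pdk4 and Eno2 lie far up the line in both cell types, Pdk1 and Ldhb lie below 0, and most other genes lie within 0.5 of 0, with no test made because the diets are in separate tables.

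Genes around the pathway were examined from lists written from general knowledge, but with earlier results of these data known. The counts called from these lists are therefore not independent of the data. Of 53 other genes of glucose, pyruvate and glycerol phosphate metabolism, 44 passed the low-count filter in HFD mice and 42 in ND mice. In each diet 3 were called higher in ARMs, beside 4.46% of all genes in HFD mice and 3.55% in ND mice, and 0 were lower. Their medians were -0.04 and -0.03. The called genes were the same in both diets. Pcx, which encodes the pyruvate carboxylase that feeds oxaloacetate from pyruvate, was at 2.52 and 2.52 FPKM in HFD ARMs against 0.77 and 0.79 FPKM in HFD SMs, or 1.67 higher on the log2 scale (SE 0.15, adjusted p = 0.00013), and differed by 1.41 (adjusted p = 0.00121) in ND mice.
Pck1, the cytosolic phosphoenolpyruvate carboxykinase of gluconeogenesis and glyceroneogenesis, was at 3.42 and 4.06 FPKM in HFD ARMs against 0.88 and 0.46 FPKM in HFD SMs. Its log2 fold change was 2.44 (SE 0.24, adjusted p = 0.000235) in HFD mice and 1.33 (SE 0.35, adjusted p = 0.0391) in ND mice. Gpd1, which makes glycerol 3-phosphate from a glycolytic intermediate, rose by 1.07 (adjusted p = 0.0014) and 0.94 (adjusted p = 0.0151). All of these are enzymes that branch off glycolysis or run against it, and they are abundant in adipocytes. The most expressed genes of this list showed small differences, Bsg (the chaperone of the lactate transporters) by -0.05 and -0.15, Mpc1 (a subunit of the mitochondrial pyruvate carrier) by -0.03 and -0.01, and Pdhb (a pyruvate dehydrogenase subunit) by 0.01 and -0.03.
Transcripts of other cell types were also higher in ARMs. Of 12 adipocyte markers, 9 were called higher in HFD ARMs and 7 in ND ARMs, and their sum was 165.4 and 171.6 FPKM in HFD ARMs against 83.49 and 84.7 FPKM in HFD SMs. In ND mice that sum was 120.0 and 190.1 FPKM in ARMs against 73.45 and 83.1 FPKM in SMs. Pnpla2 alone was at 71.24 and 69.34 FPKM in HFD ARMs against 56.57 and 55.27 FPKM in HFD SMs. Neither Pnpla2 nor Lipe was called in either diet, so the sums understate the difference of the called markers. Adipoq, the adiponectin gene, was at 12.99 and 15.73 FPKM in HFD ARMs against 1.90 and 1.99 FPKM in HFD SMs, so no library was free of it. One of the 12, Cidea, was listed at 0 in 1 HFD SM library and had no row in the ND table. All 8 endothelial markers were called higher in HFD ARMs, with a sum of 49.02 to 51.26 FPKM against 14.05 to 20.24 FPKM, and 0 of 8 in ND ARMs. Of 8 fibroblast markers 5 and 7 were called higher in ARMs in HFD and ND mice, 5 of 6 mesothelial markers in ND mice and 0 in HFD mice, and 4 of 5 erythroid markers in HFD mice and 0 in ND mice. One of 8 muscle and pericyte markers was called higher in HFD ARMs and 2 in ND ARMs, while 1 of 6 neutrophil markers was lower in ND ARMs. No lymphocyte or proliferation marker was called, but only 2 of 7 lymphocyte markers passed the low-count filter in each diet. The median of the proliferation markers was 0.35 in HFD mice and 0.29 in ND mice. Mki67 in ND mice (0.50, adjusted p = 0.00827) and Birc5 in HFD mice (0.45, adjusted p = 0.0412) missed only the fold of 1.5. Pcna differed by -0.03 in HFD mice and -0.04 in ND mice. These genes are named after their values were seen. The paper reports from coculture that ARMs take up RNA of adipocytes. The part of these cells, or of such uptake, in the values of Eno2, Ldhb, Pcx, Pck1 and Gpd1 was not tested.

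**Figure D4:**
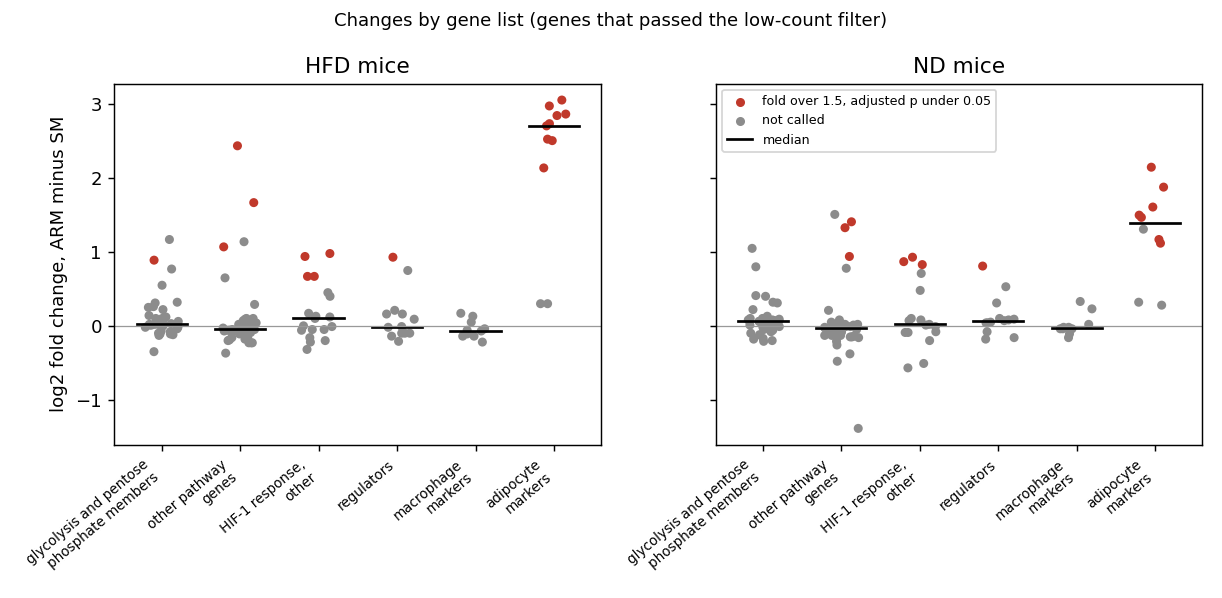
Log2 fold change, ARM minus SM, of the genes that passed the low-count filter in 6 lists, with called genes in red, others in gray and medians as bars. The medians of the 34 glycolysis and pentose phosphate genes (0.02 and 0.06) and of the macrophage markers (-0.06 and -0.03) lie near 0, and that of the adipocyte markers lies at 2.71 in HFD and 1.39 in ND mice.

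The HIF-1 response was examined through genes outside the pathway and through the promoters of the 34 genes. Of 20 HIF-1 response genes outside the pathway, 19 passed the low-count filter in HFD mice and 17 in ND mice. In HFD ARMs 4 were called higher, beside 4.46% of all genes, in ND ARMs 3, beside 3.55%, and 0 were lower. Vegfa, the vascular growth factor, was at 4.26 and 5.51 FPKM in HFD ARMs against 2.12 and 2.81 FPKM in HFD SMs, with log2 fold changes of 0.98 (adjusted p = 0.0044) in HFD mice and 0.93 (adjusted p = 0.00892) in ND mice. Hilpda, a lipid droplet protein that inhibits lipolysis, rose by 0.67 (adjusted p = 0.00165) and 0.83 (adjusted p = 0.000918). Ndrg1 rose by 0.67 (adjusted p = 0.000777) and 0.87 (adjusted p = 0.00704), and Pgf, the placental growth factor, by 0.94 (adjusted p = 0.0231) in HFD mice. The median of the list was 0.10 in HFD mice and 0.02 in ND mice, and Mif and P4ha1, among its most expressed genes, differed by 0.10 and 0.00 in HFD mice and by -0.09 and 0.02 in ND mice. Of 15 regulators of the pathway, 13 passed the filter in each diet and their medians were -0.01 and 0.07. Epas1 (HIF-2 alpha) was called higher in HFD ARMs, by 0.93 (adjusted p = 0.000384), and Myc in ND ARMs, by 0.81 (adjusted p = 0.011). Hif1a, whose product is mainly controlled by its stability, differed by -0.10 in HFD mice and 0.04 in ND mice, Mlxip by -0.01 and 0.04, Nfe2l2 by -0.14 and 0.31, and Trp53 by 0.16 and 0.09. These calls stand beside the adipocyte markers (9 of 12 called higher in HFD ARMs and 7 in ND ARMs) and the endothelial markers (8 of 8 and 0 of 8). The part of those cells, or of adipocyte RNA taken up by ARMs, in the values of Vegfa, Hilpda, Ndrg1, Pgf, Epas1 and Myc was not tested.
The 250 bases before the annotated start were searched in RefSeq promoters of GRCm38.p6, found for 33 of the 34 genes. The letters ACGTG, the core of the HIF binding site, were sought on both strands, and a match may also be part of the E-box CACGTG, the site of Myc. ACGTG was found in 12 of the 33 genes (36.4%), beside 18.5% of 27025 genes (16.6% of 32851 promoters, several genes having more than 1), and CACGTG in 4 of the 33 (12.1%), beside 6.86%. Shown as examples are windows of Ldha and Pgk1, well-known HIF-1 targets that hold the core and were not called, and of Eno2. The window of Eno2, the gene called in HFD mice, does not hold these letters. Eno2 is 1 of 21 genes without a match, and the others of the 21 were not called. A site outside the 250 bases would not be seen, and whether HIF acts on these genes was not tested. Each window shown is written 5' to 3' on the strand of the gene, with ACGTG or its complement in capitals.
Ldha, chr7:46845554-46845803, + strand: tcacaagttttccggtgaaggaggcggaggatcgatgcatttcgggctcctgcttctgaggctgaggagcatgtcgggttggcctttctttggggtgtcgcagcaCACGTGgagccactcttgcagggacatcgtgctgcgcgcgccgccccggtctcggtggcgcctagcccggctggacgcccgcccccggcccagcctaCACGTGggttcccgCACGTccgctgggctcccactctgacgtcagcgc
Pgk1, chrX:106186850-106187099, + strand: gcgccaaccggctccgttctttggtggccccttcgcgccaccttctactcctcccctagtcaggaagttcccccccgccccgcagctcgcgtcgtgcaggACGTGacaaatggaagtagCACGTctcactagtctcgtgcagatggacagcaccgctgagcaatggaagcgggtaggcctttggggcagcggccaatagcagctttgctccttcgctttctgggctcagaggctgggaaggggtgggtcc
Eno2, chr6:124769674-124769923, - strand: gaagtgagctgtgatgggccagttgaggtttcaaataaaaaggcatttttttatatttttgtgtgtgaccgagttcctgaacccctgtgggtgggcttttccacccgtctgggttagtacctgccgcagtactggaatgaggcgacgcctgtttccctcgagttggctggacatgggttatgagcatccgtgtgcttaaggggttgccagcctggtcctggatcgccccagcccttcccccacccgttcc
The window of Ldha shown held 5 matches on the 2 strands, 4 of them in 2 E-boxes, which read the same on both strands. Another annotated promoter of Ldha, at chr7:46846832-46847081, held 0 matches. A gene was counted as having a match when any of its windows held one, so a gene with more windows had more chances. No share of windows is given for the 33 genes, and their number of windows per gene was not matched to that of all genes. The window of Pgk1 held 2 matches and that of Eno2 held 0. Of the 12 genes with a match, 0 were called in either diet, beside 4.46% and 3.55% of all genes called higher, a share at which 0 of 12 says nothing about them. Their median log2 fold change was -0.01 in HFD mice and 0.09 in ND mice. Medians over the 21 genes without one were 0.02 and 0.05. The values of the 12 genes ran from -0.12 to 0.55 in HFD mice and from -0.10 to 0.41 in ND mice. Those of the 21 genes ran from -0.35 to 1.17 and from -0.21 to 1.05. Among the 12, Slc2a1 differed by 0.55 and 0.40, Pfkfb3 by -0.11 and 0.41, Pgk1 by 0.01 and -0.10, and Ldha by -0.02 and -0.08. Pdk1, without a match, differed by 0.00 and 0.06. The part of HIF-1 in these values was not tested.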

How the data were processed

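Bulk RNA-seq of 8 libraries was used, sequenced at a company on an Illumina platform. The authors deposited 1 table per diet, which lists estimated counts, FPKM values and TPM values by gene and library. The labels name the build mm10, and the aligner, the counting program and the annotation are not given in the sources used here. Group averages in the tables were not used.
Estimated counts were rounded, and each diet was fitted on its own in edgeR 4.0.16 (R 4.3.3) with TMM factors, filterByExpr, Benjamini-Hochberg adjustment and the quasi-likelihood test. The thresholds were 1.5 for the fold change and 0.05 for the adjusted p, as in the figure legends of the study. For 1 gene, 2 libraries against 2 allow no two-sided exact permutation p below 0.333, so the p-values borrow the spread of all genes and measure the spread between pools of mice. The interaction with diet used all 8 libraries, and diet ratios are values only. Intervals are 95% intervals of the fit.
The 34 genes, the other lists and the markers were chosen with earlier results of these data known. All 34 could be named, and of the other lists the genes called in a diet, the 3 most expressed in a diet and markers that define a cell type. Other genes are said to be named after their values were seen. A count over 0.01 from a whole number was taken as not whole. Alternatives were DESeq2 1.42.0, library totals, no filter, a minimum of 10 counts per library, and limma 3.58.1 on log2(FPKM + 1) and log2(FPKM + 0.1) for genes at 1 FPKM in 2 libraries. Another was the threshold of the study's methods text (log2 fold change over 0.6 and p under 0.05, taken here as unadjusted). The others were a joint fit of both diets, a block for the replicate number, each library left out, and TPM and TMM-scaled counts for levels. The code was tested on simulated data. Python 3.11.15 with matplotlib 3.10.9 drew the figures.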

Additional observations from a re-analysis of the deposited data

Results flagged for a closer look

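For 3 of the 34 genes both ARM libraries lay on one side of both SM libraries in HFD mice and on the other side in ND mice, as for 4.31% of the 12343 genes tested in both diets. The difference between diets in the log2 fold change, HFD minus ND, was -0.53 for Pfkfb3 (SE 0.11, adjusted p = 0.0865), 0.33 for Pfkfb4 (SE 0.13, adjusted p = 0.515) and -0.21 for Hk1 (SE 0.11, adjusted p = 0.706), by edgeR's quasi-likelihood test of the interaction. None of the 3 passed the threshold in this fit, which had no replicate block. The log2 fold change was -0.11 in HFD mice and 0.41 in ND mice for Pfkfb3, 0.14 and -0.20 for Pfkfb4, and -0.13 and 0.06 for Hk1.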

How the results depend on the processing

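In HFD mice 1 gene of the 34 was called in 7 of the 9 alternatives that keep all libraries. At the threshold of the study's methods text and with at least 10 counts in every library, 2 (Eno2 and Ldhb) were called. With each library left out, 0 to 2 were called. In ND mice 0 were called by DESeq2, library totals and one fit, and 2 (Eno2 and Ldhb) at the threshold of the study's methods text. In ND mice 1 (Ldhb) was called without a filter, with at least 10 counts, in both limma fits and with the replicate block. The FPKM filter of the limma fits left 33 of the 34 genes in HFD mice and 32 in ND mice. With each library left out 0 were called. A left-out library leaves 1 in a group, which is then assumed to vary like the others. The median over the 34 genes ran from -0.01 to 0.08 in HFD mice with each library left out. All genes called were 634 in HFD mice and 458 in ND mice, and 1017 and 888 at the threshold of the study's methods text. They were 331 and 214 with limma on log2(FPKM + 1) and 405 and 219 on log2(FPKM + 0.1). They were 181 without a filter in HFD mice, 280 with DESeq2 in ND mice, and with each library left out 214 to 637 and 188 to 661. Only replicate numbers are shared between ARMs and SMs, with no stated pairing, and the deviations of same-numbered libraries from their group means correlated with r = -0.03 (HFD) and 0.19 (ND). With the replicate block all genes called were 673 and 786, and 1 of the 34 genes (Pfkfb3) passed the difference between diets, with 187 of all genes, where the fit without it gave 22. The cause of these changes was not tested.
Of 810 alternative values of the log2 fold change of single genes, 55 changed sign, 44 of them with a library left out. With library totals, limma on log2(FPKM + 1) and limma on log2(FPKM + 0.1), the HFD values were 0.01, 0.02 and 0.02 for Pfkl, 0.01 in each for Ldha, and 0.01, 0.03 and 0.03 for Pgd, and Slc2a6 was at -0.01 in both limma fits. The ranges with each library left out were, in HFD mice, Eno1 (-0.16 to 0.01), Eno3 (-0.21 to 0.06), G6pdx (-0.03 to 0.05), Gapdh (-0.04 to 0.10), Gpi1 (-0.04 to 0.12), Hk2 (-0.27 to 0.06), Ldha (-0.10 to 0.06), Pfkl (-0.07 to 0.03), Pfkm (-0.22 to 0.01), Pgd (-0.06 to 0.01), Pgk1 (-0.03 to 0.04), Rpe (-0.07 to 0.12), Slc16a1 (-0.14 to 0.06), Slc2a6 (-0.19 to 0.23) and Tpi1 (-0.01 to 0.06), and in ND mice, Aldoa (-0.05 to 0.23), Eno1 (-0.29 to 0.06), Gapdh (-0.26 to 0.19), Gpi1 (-0.10 to 0.07), Hk3 (-0.01 to 0.04), Ldha (-0.21 to 0.06), Pdk1 (-0.02 to 0.13), Pfkl (-0.02 to 0.19), Pgam1 (-0.04 to 0.17), Pgd (-0.01 to 0.14), Pgk1 (-0.28 to 0.12), Pgls (-0.13 to 0.11), Pkm (-0.14 to 0.18), Slc16a3 (-0.25 to 0.28), Slc2a3 (-0.23 to 0.36), Slc2a6 (-0.21 to 0.38), Taldo1 (-0.05 to 0.16) and Tpi1 (-0.21 to 0.09). Low counts limit Ldhb, Aldoc, Slc2a3 and, in ND mice, Eno2.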
